A study of Rattus norvegicus with 12 samples.

Results

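The receptors and bridging proteins through which phagocytes recognise and take up dying cells, a process called efferocytosis, were followed through rat liver cells cultured beside human amniotic cells. The 10 genes were chosen by symbol: the receptor tyrosine kinase genes Mertk, Axl and Tyro3, their ligand genes Gas6 and Pros1, the integrin bridge gene Mfge8, the integrin subunit genes Itgav, Itgb5 and Itgb3, and the endocytic receptor gene Lrp1. Each symbol stood on 1 row of the 32623 genes listed, and all 10 passed the filter on low counts that left 13539 genes for testing. Polyadenylated RNA was measured in cells labelled as primary hepatic stellate cells, prepared by differential centrifugation over a gradient from rats with cirrhosis after long inhalation of carbon tetrachloride. For 24 h they shared medium with Transwell inserts, whose porous membrane passes soluble products but holds cells back. They were kept with 15000 viable human amniotic epithelial cells (hAEC, libraries 3, 4, 11 and 12), 15000 viable human amniotic mesenchymal stromal cells (hAMSC, libraries 7, 8, 15 and 16) or with vehicle (libraries 17, 18, 19 and 20). All 3 groups came from cirrhotic rats. The labels give no strain, sex or age. They also leave unsaid whether libraries of 1 group stem from different animals or dishes, and every p-value below therefore refers to library-to-library spread, which may be technical.

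Dying cells expose phosphatidylserine on their surface. Mertk, Axl and Tyro3 do not bind this lipid directly: the secreted proteins Gas6 and protein S (Pros1) bind it with their vitamin K-modified ends and bind the receptors with the other. Mfge8 works in the same way for integrins, holding phosphatidylserine with its discoidin domains and the integrins alpha v beta 3 and alpha v beta 5 with an arginine-glycine-aspartate motif. Lrp1 takes up calreticulin-bearing cells and many protease complexes. In liver, Mertk is best known from macrophages, and Gas6 and Axl also from stellate cells.

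The cells carried the RNA of macrophages far more than that of stellate cells. The summed level of 15 macrophage markers lay between 35482 and 59897 CPM, of which Gpnmb alone made 14013 to 26691 CPM. CPM are counts scaled to library size and not corrected for gene length, so single genes are compared here between libraries and not with one another. The summed level of 12 stellate cell and myofibroblast markers lay between 25.5 and 105 CPM, and much of that was Reln (6.71 to 92.2 CPM). The stellate markers Lrat, Hand2 and Lum stayed under 1 CPM in every library and failed the filter on low counts, which 8 of the 12 passed. These sums set different genes side by side and are only a rough guide. The libraries fell into 2 sets of 6 that cross the groups: numbers 11, 12, 15, 16, 19 and 20 (higher-numbered) and numbers 3, 4, 7, 8, 17 and 18 (lower-numbered), with 2 libraries of each group in each. The sets were seen in earlier results of these data and the labels do not name them, so differences between the sets are given as levels and ranges with no test. Comparisons between co-cultures have the set in the model. It lowered the biological coefficient of variation to 9.92%, against 38.9% without it.

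The promoter sequences of 4 members are shown first: Gas6 and Itgb5, which were highest in the higher-numbered libraries relative to the lower-numbered ones, and the receptors Mertk and Lrp1, which differed in opposite directions. RefSeq promoters of build GRCr8, from 250 bases before to 50 bases after the annotated start, matched 9 of the 10 members by symbol, all but Itgb3. The files' own build is rn6, so these coordinates are not those of the counting. Each is printed 5′ to 3′ on the gene's strand, with capitals marking every match, on either strand, to any of 6 motifs.
Gas6, chr16:82747426-82747725, plus strand: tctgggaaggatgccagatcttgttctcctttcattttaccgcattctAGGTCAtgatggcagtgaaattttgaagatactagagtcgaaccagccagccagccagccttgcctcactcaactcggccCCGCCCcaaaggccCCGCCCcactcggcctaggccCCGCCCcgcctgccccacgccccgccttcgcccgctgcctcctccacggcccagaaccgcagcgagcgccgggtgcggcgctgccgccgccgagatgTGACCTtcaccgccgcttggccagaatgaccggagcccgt
Itgb5, chr11:80449324-80449623, minus strand: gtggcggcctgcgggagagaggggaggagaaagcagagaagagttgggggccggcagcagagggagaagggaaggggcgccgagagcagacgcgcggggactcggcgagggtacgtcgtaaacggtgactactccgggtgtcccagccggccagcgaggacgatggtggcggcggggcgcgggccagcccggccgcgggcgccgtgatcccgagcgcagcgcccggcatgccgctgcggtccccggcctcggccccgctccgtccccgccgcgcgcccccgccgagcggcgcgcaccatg
Mertk, chr3:136392324-136392623, plus strand: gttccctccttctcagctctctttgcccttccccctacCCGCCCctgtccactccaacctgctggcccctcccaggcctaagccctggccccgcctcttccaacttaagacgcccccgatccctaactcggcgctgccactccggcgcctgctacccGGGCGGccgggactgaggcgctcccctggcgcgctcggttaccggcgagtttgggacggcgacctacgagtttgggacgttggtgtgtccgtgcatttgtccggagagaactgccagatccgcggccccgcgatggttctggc
Lrp1, chr7:65346147-65346446, minus strand: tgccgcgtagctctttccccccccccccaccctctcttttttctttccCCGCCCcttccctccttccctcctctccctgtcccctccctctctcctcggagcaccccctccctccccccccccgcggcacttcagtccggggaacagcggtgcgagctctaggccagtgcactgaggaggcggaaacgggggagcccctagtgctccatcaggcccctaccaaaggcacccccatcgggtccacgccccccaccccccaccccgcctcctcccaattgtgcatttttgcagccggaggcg

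The motifs searched were the GC box GGGCGG, the PU.1 core GAGGAA, the AP-1 element TGANTCA, the MAF core TGCTGAC, the nuclear receptor hexamer AGGTCA and the LXR-type direct repeat of that hexamer spaced by 4 bases, which overlaps it. Of all 33469 promoters of 300 bases, 33.1% held the GC box, 27.6% the PU.1 core, 7.33% the AP-1 element, 4.44% the MAF core, 16.2% the hexamer and 0.00598% the repeat. Gas6 held GC boxes at positions -122, -108 and -87, counted from the start with -1 as the base before it, and hexamers at -202 and 11. Mertk held GC boxes at -212 and -93, and Lrp1 a GC box at -202. The Itgb5 window held none of these letters, and the GC content was 65.3% for Gas6, 76.7% for Itgb5, 67.3% for Mertk and 68.3% for Lrp1. Of the promoters not printed, Axl held a PU.1 core at -190, Mfge8 at -239 and Itgav at -62, and Tyro3 held an AP-1 element at -206 and a MAF core at -132. Axl, Tyro3, Pros1, Mfge8 and Itgav each held at least 1 GC box as well. A match of letters is a description of the sequence and not a bound site.

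Between the library sets, Gas6 and Itgb5 were several-fold higher and Itgb3 several-fold lower in the higher-numbered libraries, in all 3 groups alike. Of the 10 genes, 8 had ranges that did not overlap between the 6 and the 6 libraries, where 54.9% of all tested genes did. With a mean difference of over 1 log2 unit added, 4 of the 10 were apart, against 17.1% of tested genes, and 3 of them (Gas6, Itgb5 and Itgb3) differed by over 2 log2 units, as did 6.21% of tested genes. Of the 4, 2 were higher (8.42% of tested genes) and 2 lower (8.64%) in the higher-numbered libraries. The median absolute difference was 0.75 log2 units for the 10 genes and 0.38 for all tested genes. A mean of at least 5 CPM would leave 9903 genes, with Tyro3 the only member lost, and the shares were not taken over those alone. The 10 genes were also chosen with earlier results of these data known. These are bulk samples, in which fewer cells of a type and less RNA per cell cannot be told apart.

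**Figure D1:**
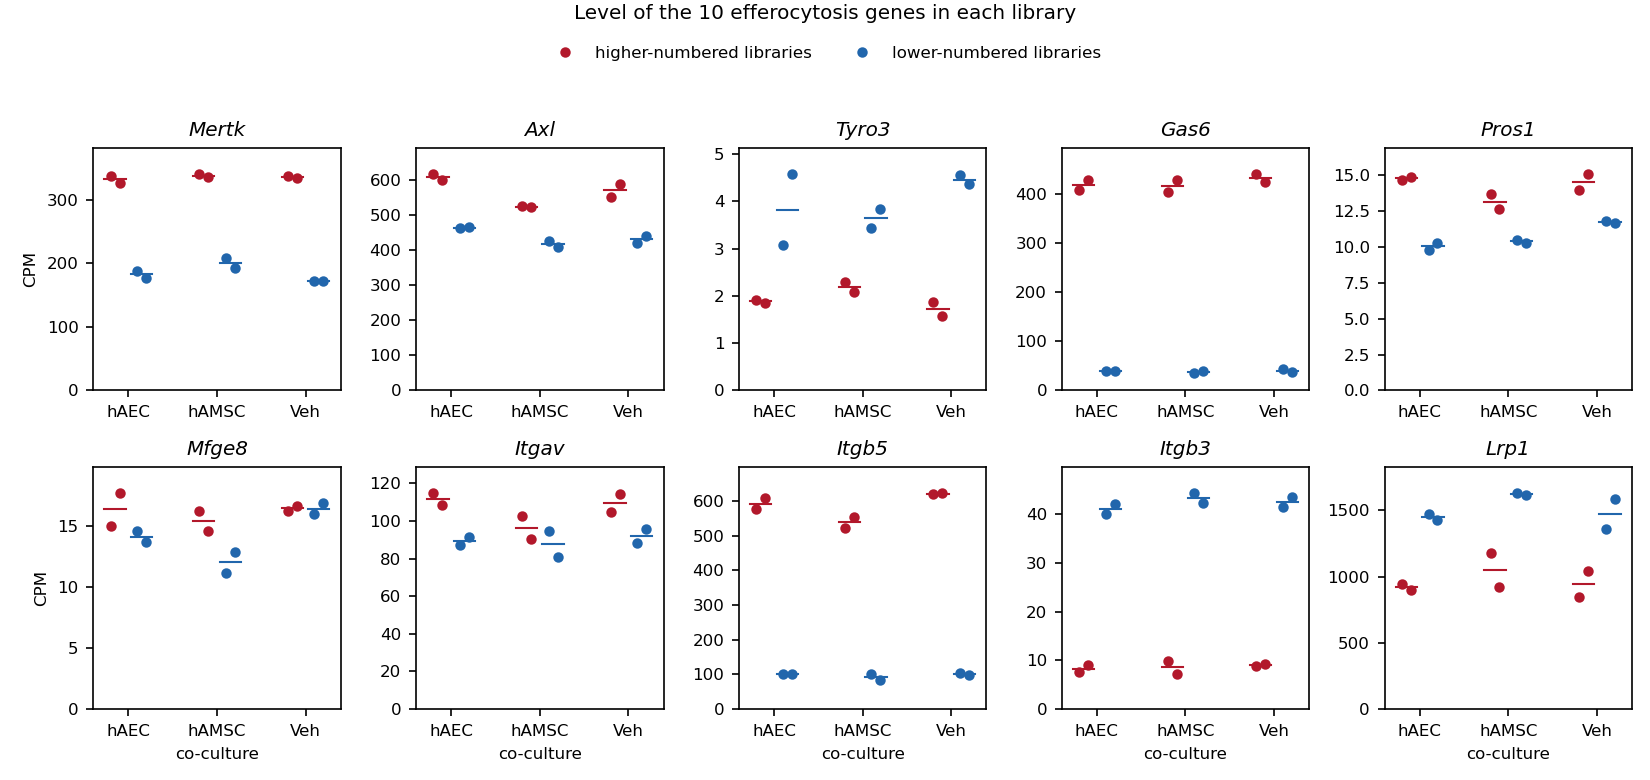
CPM (y axis, from 0) of each of the 10 genes in the 12 libraries, by co-culture group (x axis). Each point is 1 library, red for higher-numbered and blue for lower-numbered, and each bar is the mean of 2 libraries. Gas6 and Itgb5 stand apart between colours in every group, from 404 to 439 CPM in red against 35.7 to 43.3 CPM in blue for Gas6.

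Among the receptor kinases, Mertk (ENSRNOG00000017319), the receptor most used by macrophages, was at 338 and 327 CPM in hAEC 11 and 12, 340.1 and 336 CPM in hAMSC 15 and 16, and 338 and 334 CPM in vehicle 19 and 20. In the lower-numbered libraries it was at 188 and 177 CPM in hAEC 3 and 4, 209 and 193 CPM in hAMSC 7 and 8, and 172 and 173 CPM in vehicle 17 and 18. Every higher-numbered library lay above every lower-numbered one, by 0.86 log2 units on average (1.81-fold). The spread within the higher-numbered set was small, with a coefficient of variation of 1.42%, against 7.71% in the lower-numbered set.

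Axl (ENSRNOG00000020716), the receptor that binds Gas6 and not protein S, differed less between the sets. It was at 617 and 599 CPM in hAEC 11 and 12, 526 and 523 CPM in hAMSC 15 and 16, and 553 and 588 CPM in vehicle 19 and 20. Its lower-numbered libraries had 463 and 466 CPM in hAEC 3 and 4, 426 and 409 CPM in hAMSC 7 and 8, and 421 and 442 CPM in vehicle 17 and 18. The ranges did not overlap and the mean difference was 0.37 log2 units (1.30-fold), so the ratio of Mertk to Axl was 1.40-fold higher in the higher-numbered libraries.

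Tyro3 (ENSRNOG00000058586), the kinase best known from the nervous system, rested on few reads, 43 to 145 counts a library. It was at 1.92 and 1.85 CPM in hAEC 11 and 12, 2.29 and 2.09 CPM in hAMSC 15 and 16, and 1.87 and 1.57 CPM in vehicle 19 and 20. In the lower-numbered libraries it was at 3.07 and 4.57 CPM in hAEC 3 and 4, 3.44 and 3.84 CPM in hAMSC 7 and 8, and 4.55 and 4.37 CPM in vehicle 17 and 18. Here the higher-numbered libraries were the lower ones, by 1.01 log2 units (difference -1.01), opposite to Mertk and Axl. This difference lay just past the 1 log2 unit used here, and that of Mertk (0.86) just within it.

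Of the ligands, Gas6 (ENSRNOG00000018233), which binds all 3 kinases, had the largest difference between sets among the 10 genes. It was at 407 and 427 CPM in hAEC 11 and 12, 404 and 429 CPM in hAMSC 15 and 16, and 439 and 424 CPM in vehicle 19 and 20. The lower-numbered libraries had 39.0 and 39.3 CPM in hAEC 3 and 4, 35.7 and 39.5 CPM in hAMSC 7 and 8, and 43.3 and 37.4 CPM in vehicle 17 and 18. The sets lay 3.43 log2 units apart (10.8-fold), and 99.3% of tested genes had a smaller signed difference. Within a set the libraries differed little, with coefficients of variation of 3.26% in the higher-numbered and 6.48% in the lower-numbered set.

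Pros1 (ENSRNOG00000048723), protein S, which circulates as an anticoagulant cofactor and binds Mertk and Tyro3, did not share the size of that difference. It lay between 12.6 and 15.1 CPM in the higher-numbered and between 9.81 and 11.8 CPM in the lower-numbered libraries, 0.40 log2 units apart with no overlap. The ratio of Gas6 to Pros1 was therefore 8.18-fold higher in the higher-numbered libraries. Mfge8 (ENSRNOG00000017510), the integrin bridge, overlapped between the sets, at 14.5 to 17.7 CPM in the higher-numbered and 11.1 to 16.8 CPM in the lower-numbered libraries (difference 0.19).

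The integrin subunits parted from one another. Itgav (ENSRNOG00000004912), the alpha v chain that pairs with both beta chains studied here, overlapped between the sets, at 90.5 to 115 CPM in the higher-numbered and 80.6 to 95.9 CPM in the lower-numbered libraries (difference 0.24).

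Itgb5 (ENSRNOG00000001795), the beta 5 chain, was at 576 and 608 CPM in hAEC 11 and 12, 523 and 553 CPM in hAMSC 15 and 16, and 619.9 and 623 CPM in vehicle 19 and 20. The lower set had 99.8 and 100.4 CPM in hAEC 3 and 4, 100.2 and 85.2 CPM in hAMSC 7 and 8, and 103 and 97.7 CPM in vehicle 17 and 18. The sets lay 2.58 log2 units apart (5.97-fold), with all 6 higher-numbered libraries above all 6 lower-numbered ones. Itgb5, alone of the integrin subunits among the 10 genes, was past 1 log2 unit in this direction.

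Itgb3 (ENSRNOG00000048449), the beta 3 chain that pairs with alpha v or, on platelets, with alpha IIb, went the other way. It was at 7.63 and 9.04 CPM in hAEC 11 and 12, 9.94 and 7.19 CPM in hAMSC 15 and 16, and 8.93 and 9.32 CPM in vehicle 19 and 20. In the lower-numbered libraries it was at 40.02 and 42.2 CPM in hAEC 3 and 4, 44.4 and 42.3 CPM in hAMSC 7 and 8, and 41.5 and 43.6 CPM in vehicle 17 and 18. The difference was -2.29 log2 units (4.88-fold lower in the higher-numbered libraries). With both beta chains together, the ratio of Itgb5 to Itgb3 was 29.1-fold higher in the higher-numbered libraries, the log2 ratio being 5.71 to 6.25 there and 1.01 to 1.32 in the lower-numbered libraries.

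Lrp1 (ENSRNOG00000025053), the large endocytic receptor, was lower in the higher-numbered libraries, as was Itgb3, but by less. It was at 946 and 899 CPM in hAEC 11 and 12, 1181 and 921 CPM in hAMSC 15 and 16, and 849 and 1043 CPM in vehicle 19 and 20. In the lower-numbered libraries it was at 1475 and 1425 CPM in hAEC 3 and 4, 1631 and 1618 CPM in hAMSC 7 and 8, and 1356 and 1585 CPM in vehicle 17 and 18. The difference was -0.64 log2 units (1.56-fold), with no overlap, and the ratio of Mertk to Lrp1 was 2.83-fold higher in the higher-numbered libraries.

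**Figure D2:**
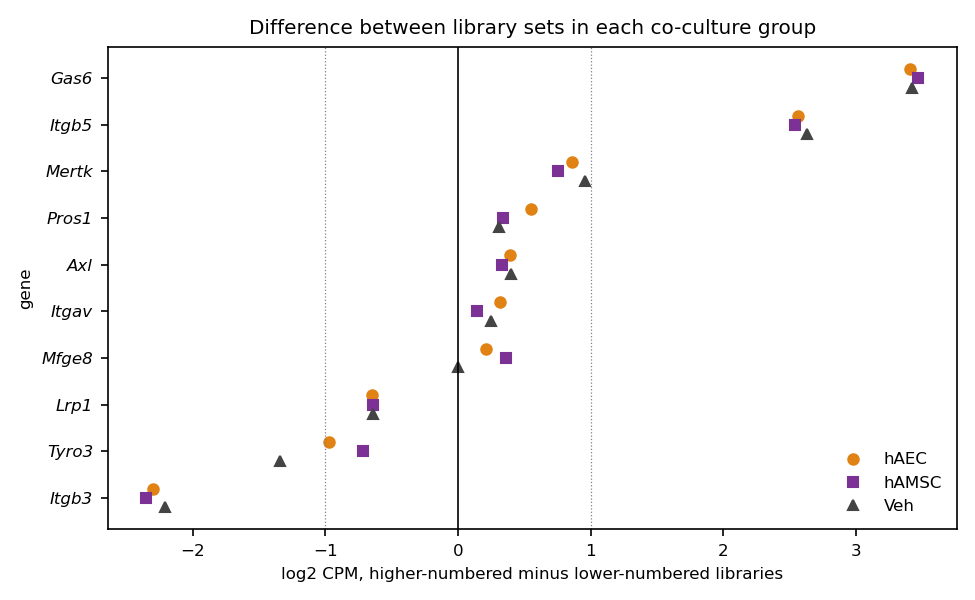
Mean log2 CPM of the 2 higher-numbered minus that of the 2 lower-numbered libraries (x axis) for each gene (y axis), with 1 symbol per co-culture group and dotted lines at 1 log2 unit in each direction. Gas6 had 3.41 with hAEC, 3.47 with hAMSC and 3.42 with vehicle, and Itgb3 -2.30, -2.35 and -2.21 in the same order.

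How alike the difference between sets was in the 3 groups varied by member. For Lrp1 it was -0.65 with hAEC, -0.64 with hAMSC and -0.64 with vehicle, and for Itgb5 2.56, 2.54 and 2.63 in the same order. Mertk was at 0.86 with hAEC, 0.75 with hAMSC and 0.96 with vehicle, and Tyro3 at -0.97, -0.72 and -1.34. In the same order, Pros1 was at 0.55, 0.34 and 0.31, Itgav at 0.32, 0.14 and 0.25, and Mfge8 at 0.21, 0.36 and 0.00. Whether a co-culture effect differed between the sets was tested as an interaction over all genes, and no member passed for hAEC (0% of all tested genes called) or for hAMSC (0.199% called). At an unadjusted p under 0.05 there were 0 members for hAEC (5.4% of tested genes) and 2 for hAMSC (10% of tested genes). The smallest p among the members was that of Mertk for hAMSC, whose co-culture effect was 0.21 log2 units lower in the higher-numbered set (difference -0.21, SE 0.071, edgeR adjusted p = 0.325).

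Markers of other cell types moved with the sets. The summed level of 10 endothelial markers was 210 to 350 CPM in the higher-numbered and 479 to 595 CPM in the lower-numbered libraries. Of these 10, 5 were over 1 log2 unit lower in the higher-numbered libraries with no overlap and 0 higher, the differences running between -4.45 for Lyve1 and 0.63 for Vwf. The stellate list summed to 25.5 to 30.4 CPM in the higher-numbered and 65.4 to 105 CPM in the lower-numbered libraries, of which Reln alone made 6.71 to 15.4 CPM and 54.8 to 92.2 CPM. Of its 8 tested genes 0 were higher by the same rule and 2 lower (Reln and Dcn), while the median difference was 0.58 log2 units, with Des at 1.21, Col1a1 at 1.07, Tagln at 0.92 and Acta2 at 0.84. The macrophage list summed to 56408 to 59897 CPM in the higher-numbered and 35482 to 38797 CPM in the lower-numbered libraries. Much of that was Gpnmb (24427 to 26691 CPM and 14013 to 15955 CPM in the same order), and Lyz2 made 8401 to 9941 CPM and 984 to 1195 CPM. Within the macrophage list of 15 genes, 4 stood over 1 log2 unit higher in the higher-numbered set and 2 lower. The 4 were Adgre1 (3.59), Lyz2 (3.03), Mrc1 (2.13) and Aif1 (1.55), and the 2 were Mmp12 (-1.69) and Marco (-1.40), with the Kupffer cell gene Clec4f at -0.24 and Cd163 at -0.19. The part of these cell types in the member differences was not tested.

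The 7 platelet markers summed to 637 to 684 CPM in the higher-numbered and 147 to 176 CPM in the lower-numbered libraries. Most of that was the chemokine gene Pf4 (630.3 to 678 CPM and 121 to 149 CPM in the same order). Itga2b went the other way, at 4.17 to 5.45 CPM in the higher-numbered and 24.0 to 27.6 CPM in the lower-numbered libraries. Treml1 was at 1.03 to 1.72 CPM and 0.410 to 0.984 CPM in the same order, and Gp9, Gp1ba, Gp1bb and Ppbp stayed under 1 CPM in every library. Hepatocyte markers, 10 in all, summed to 672 to 819 CPM in the higher-numbered and 519.7 to 651 CPM in the lower-numbered libraries, nearly all of it transferrin (Tf, 509 to 815 CPM over all libraries), with Alb at 0.891 to 8.08 CPM. The 7 lymphocyte markers found summed to 2.29 to 5.10 CPM in the higher-numbered and 10.9 to 12.8 CPM in the lower-numbered libraries. The 7 neutrophil markers summed to 1.21 to 2.58 and 2.27 to 4.18 CPM, and the 7 mesothelial and portal fibroblast markers to 5.45 to 6.57 and 2.26 to 4.85 CPM, in the same order. No marker in these lists was at 0 in all 12 libraries, though the neutrophil gene Mpo was at 0 in every higher-numbered library and Elane in every lower-numbered one.

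The design asks whether soluble products of hAEC or hAMSC change the cells. No member passed in hAEC against vehicle, where 0% of all tested genes were called, in hAMSC against vehicle (0.236% called) or in hAEC against hAMSC (0.0222% called), by quasi-likelihood tests in edgeR, adjusted after Benjamini and Hochberg over 13539 genes. At an unadjusted p under 0.05 there was 1 member of 10 for hAEC against vehicle (5.61% of all tested genes), 5 for hAMSC against vehicle (9.68%) and 2 for hAEC against hAMSC (6.37%). The 95% intervals of the 9 members other than Tyro3 reached at most 0.30 log2 units (1.23-fold) for hAEC against vehicle, 0.46 (1.37-fold) for hAMSC against vehicle and 0.36 (1.28-fold) for hAEC against hAMSC. Those of Tyro3 reached 0.43, 0.39 and 0.43 log2 units in the same order. The 2 comparisons with vehicle share the vehicle libraries.

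Set apart by library set, few members had both co-culture libraries on 1 side of both libraries of the other group in each set. For hAEC against vehicle, 1 of 10 did (7.99% of tested genes), 1 above (4.39%) and 0 below (3.6%). For hAMSC against vehicle, 1 of 10 did (8.43%), 0 above (3.94%) and 1 below (4.49%). For hAEC against hAMSC, 1 of 10 did (7.53%), 1 above (3.69%) and 0 below (3.83%). These shares are near those of all tested genes.

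Axl had the smallest p of any member between the 2 co-cultures. Within both sets its hAEC libraries lay above its hAMSC libraries. The difference of hAEC against hAMSC was 0.18 log2 units (SE 0.034, 95% interval 0.11 to 0.26, edgeR adjusted p = 0.0842). Over 20 alternatives the adjusted p ran between 3.96e-05 and 1, and it was under the threshold in 3 of them: DESeq2, no filter on low counts (0.0458), and leaving out hAMSC 7 (0.0223). Against vehicle Axl was at 0.099 for hAEC (SE 0.034, edgeR adjusted p = 0.860) and at -0.084 for hAMSC (SE 0.034, edgeR adjusted p = 0.438), and its hAEC libraries also lay above the vehicle libraries within both sets.

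Mertk was at 0.12 log2 units for hAMSC against vehicle (SE 0.043, edgeR adjusted p = 0.398) and at 0.034 for hAEC against vehicle (SE 0.043, edgeR adjusted p = 0.955). For hAMSC the value was 0.23 in the lower-numbered set alone and 0.008 in the higher-numbered set alone, and 0.072 over all libraries but hAMSC 7. Tyro3 was at -0.069 for hAEC and -0.001 for hAMSC against vehicle, with SEs of 0.17 and 0.19, the widest of the members.

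Neither ligand passed in any comparison. Gas6 was at -0.047 for hAEC (95% interval -0.15 to 0.051) and -0.075 for hAMSC (95% interval -0.17 to 0.023) against vehicle. With 1 library left out, the hAMSC value lay between -0.11 (without vehicle 18) and -0.037 (without vehicle 17). Pros1 was at -0.16 for hAMSC against vehicle (SE 0.073, edgeR adjusted p = 0.505), and all hAMSC libraries lay below the vehicle libraries of their set. Mfge8 had the largest fitted difference, -0.27 for hAMSC against vehicle (SE 0.086, edgeR adjusted p = 0.278), with -0.44 in the lower-numbered set alone and -0.097 in the higher-numbered set alone.

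Of the integrin subunits, Itgb5 was at -0.17 for hAMSC against vehicle (SE 0.046, 95% interval -0.26 to -0.068, edgeR adjusted p = 0.190). It was under the threshold in 2 of 20 alternatives, with DESeq2 (-0.17, adjusted p = 0.0450) and without hAMSC 7 (-0.22, edgeR adjusted p = 0.0265). Itgav was at -0.13 for hAMSC against vehicle (SE 0.061) and Itgb3 at -0.024 (SE 0.081). Lrp1 was at 0.15 for hAMSC against vehicle (SE 0.082, edgeR adjusted p = 0.601), between 0.077 (without hAMSC 15) and 0.21 (without hAMSC 16) with 1 library left out, and at -0.028 for hAEC against vehicle (SE 0.082).

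**Figure D3:**
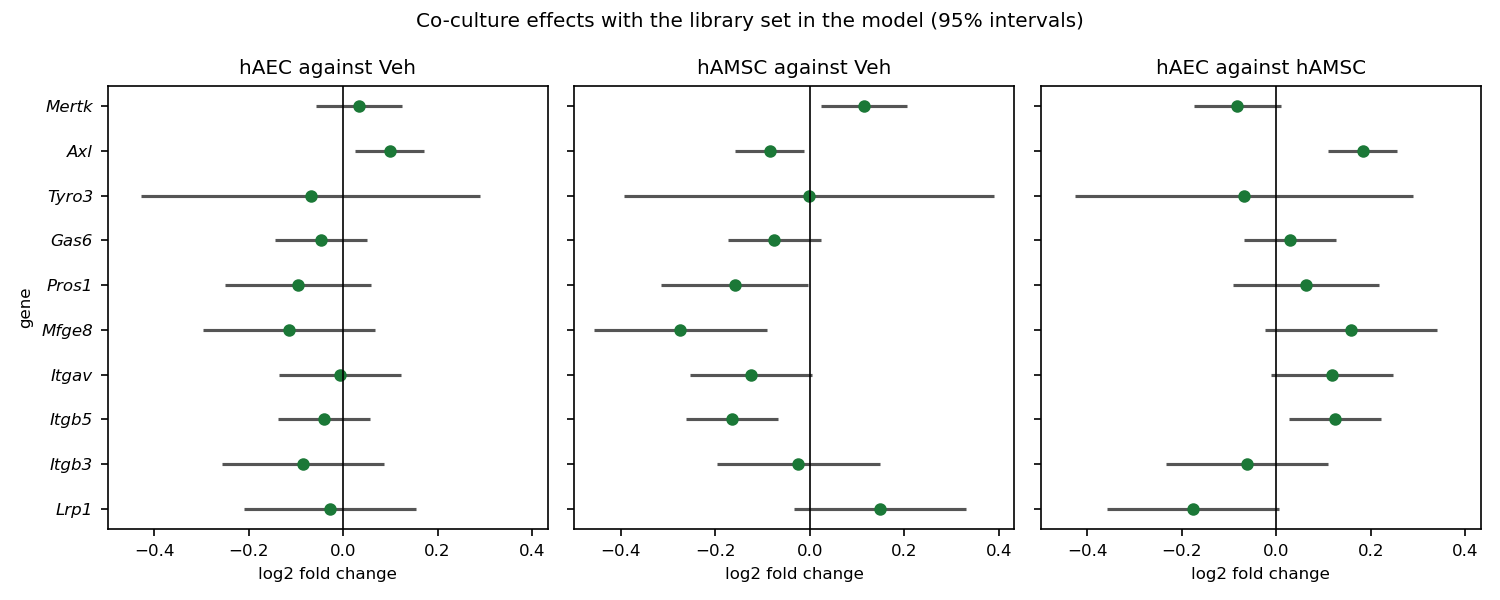
Fitted log2 fold change (x axis) of each gene (y axis) in the 3 comparisons, with 95% intervals as lines and points as estimates. The estimates lie between -0.27 and 0.18, and those of Tyro3 have the widest lines.

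The other genes of the pathway were taken from lists and are given by counts over the library sets. A gene is counted as higher or lower in the higher-numbered libraries only where the ranges did not overlap and the difference was over 1 log2 unit, which held for 8.42% of all tested genes in the higher and 8.64% in the lower direction. Among 14 tested receptors for apoptotic cells other than the members, 4 were over 1 log2 unit higher in the higher-numbered libraries with no overlap and 4 lower. Stab1, a scavenger receptor that binds phosphatidylserine, was at 1102 to 1468 CPM in the higher-numbered and 26.9 to 35.7 CPM in the lower-numbered libraries. Scarb1, a lipoprotein receptor, was at 475 to 568 CPM and 60.7 to 69.8 CPM in the same order. Cd14, a coreceptor for lipopolysaccharide, went the other way, at 167 to 217 CPM in the higher-numbered and 932 to 1080 CPM in the lower-numbered libraries.

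Of 9 tested soluble bridging proteins 5 were higher and 0 lower by that rule, with a median difference of 1.17 log2 units (-0.01 over all tested genes). The 5 were C1qa, C1qb and C1qc, which are chains of 1 protein, Edil3 and Ptx3. The median is the value of Ptx3, which lay at only 0.344 to 1.75 CPM. Within 1 log2 unit and with no overlap, Thbs1 (0.54) and Calr (0.39) were higher, and Lgals3 (-0.82) and Anxa1 (-0.48) lower. The ranges of Thbs1 nearly met, at 41.8 to 90.5 CPM (median 43.6) in the higher-numbered and 30.2 to 41.3 CPM in the lower-numbered libraries. C1qc and C1qb, chains of the complement protein that coats dying cells, were at 834 to 962 CPM and 844 to 884 CPM in the higher-numbered libraries, against 211 to 233 CPM and 245 to 265 CPM in the lower-numbered ones. Edil3, which like Mfge8 joins phosphatidylserine to alpha v integrins, was at 14.8 to 18.2 CPM in the higher-numbered and 4.11 to 5.59 CPM in the lower-numbered libraries. Of the 7 other integrin genes tested, not all of which pair with a member, Itga6 was higher by 3.16 log2 units. Itga2b (-2.39) and Itga5 (-1.91) were lower. Itga2b encodes alpha IIb, the platelet partner of beta 3. Of 10 tested genes for relatives of Lrp1 and its chaperone, 1 was higher by that rule, the lipoprotein receptor gene Vldlr (1.93), and 0 lower.

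Of the 3 genes of the vitamin K cycle, which Gas6 and Pros1 need for their lipid-binding ends, Vkorc1 was over 1 log2 unit higher (1.01) and Ggcx was at 0.41. Of 5 shedding genes 1 was higher, the protease inhibitor gene Timp3 (1.15), which lay at only 1.08 to 4.38 CPM, and 1 lower. Adam17, the protease that cuts Mertk, was at -0.67, and the lower gene was Rhbdf2 (-1.53), which helps Adam17 mature. Of 10 regulators of these receptor genes, 3 were higher and 0 lower, among them the macrophage transcription factor Maf (1.78) and the lipid-sensing receptor Pparg (1.32). Of 4 tested genes of the feedback that the kinases exert on cytokine signalling, Socs3 (-3.00) and Socs1 were lower. Of 14 tested genes of engulfment signalling 0 were higher and 2 lower, the focal adhesion genes Ptk2 (-2.02) and Bcar1 (-1.80). Of 15 tested genes of phagosome maturation 1 was higher, Dnase2 (1.33), the lysosomal nuclease that digests engulfed DNA.

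Of 5 genes that hold phagocytes back, Siglec10 was lower by far, at 5.31 to 8.16 CPM in the higher-numbered and 129 to 152 CPM in the lower-numbered libraries, while Sirpa, the receptor of Cd47, was at 0.37 log2 units. Of 8 tested genes of phosphatidylserine exposure 0 were higher and 2 lower, among them the scramblase family gene Plscr1 (-2.52). Of 9 genes of find-me signals and their receptors 5 were higher and 1 lower. Among them were Cx3cr1, the fractalkine receptor, at 27.5 to 58.8 CPM in the higher-numbered and 0.0323 to 0.289 CPM in the lower-numbered libraries, and the nucleotide receptor gene P2ry12, at 17.5 to 23.5 CPM and 0.55 to 1.23 CPM in the same order.

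**Figure D4:**
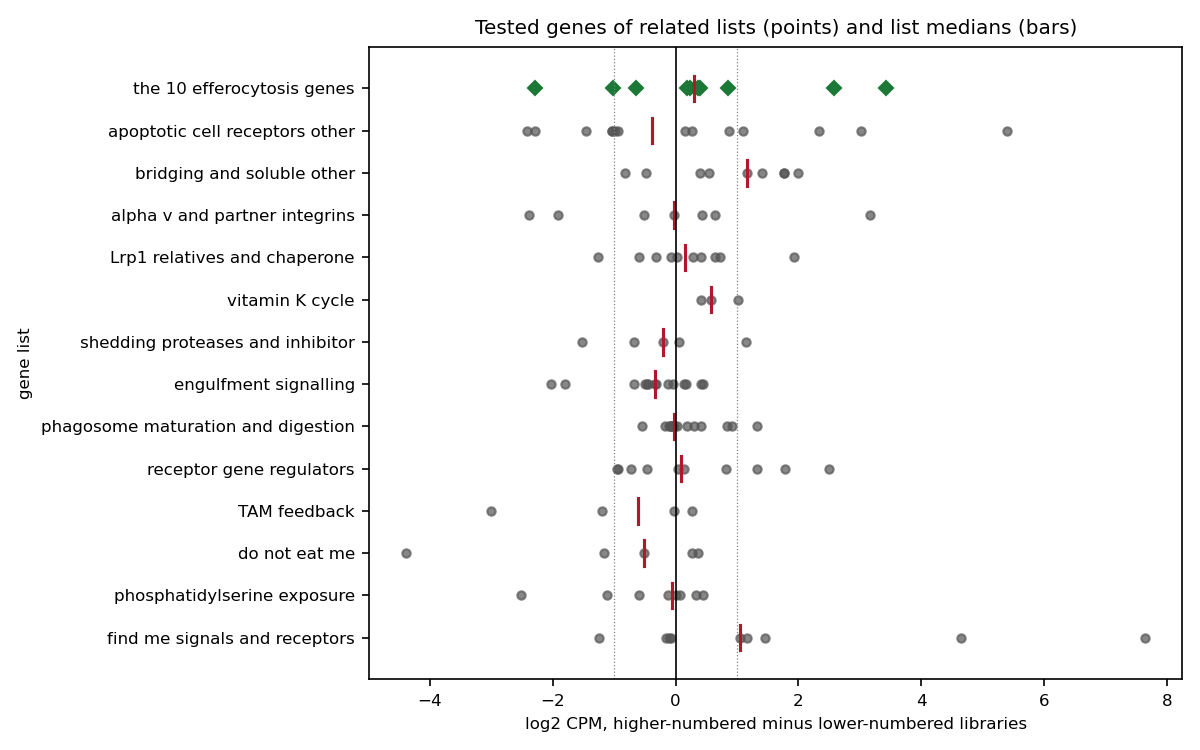
Log2 difference of the higher-numbered minus the lower-numbered libraries (x axis) for the genes of each pathway list (y axis), 1 grey point per tested gene, with green diamonds for the 10 efferocytosis genes and a red bar at each median. Dotted lines mark 1 log2 unit, and a point past them may still have overlapping ranges. The 9 soluble bridging proteins have a median of 1.17, the value of the low-level gene Ptx3.

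Between co-cultures, only Msr1 among the 13 pathway lists passed. Msr1, a scavenger receptor of macrophages, rose in hAMSC against vehicle by 0.22 log2 units (SE 0.039, edgeR adjusted p = 0.0277), and the macrophage marker Cd163 rose by 0.61 (SE 0.090, edgeR adjusted p = 0.0277). The macrophage list did not rise as a whole: of its 15 genes 8 lay above 0 and 7 below in that comparison (median 0.03), and only Cd163 passed. Beside these, all 10 endothelial markers had fitted values above 0 for hAMSC against vehicle (median 0.20) and below 0 for hAEC against hAMSC (median -0.32). Both comparisons use the same hAMSC libraries, so they are not separate results, and 0 markers passed in either. For hAEC against vehicle, 9 of these markers lay below 0 and 1 above (median -0.14). The sum of the 10 markers in the higher-numbered set was 287 to 350 CPM with hAMSC and 225 to 227 CPM with vehicle. In the lower-numbered set it was 479 to 595 CPM with hAMSC and 549 to 576 CPM with vehicle. Its part in either rise, or in the members' values, was not tested. The call of Msr1 was lost without hAMSC 7 (edgeR adjusted p = 0.0507), hAMSC 8 (0.103), hAMSC 16 (0.0991), vehicle 18 (0.114), vehicle 19 (0.0974) or vehicle 20 (0.109). That of Cd163 was lost without hAMSC 16 (edgeR adjusted p = 0.100), vehicle 18 (0.114), vehicle 19 (0.114) or vehicle 20 (0.128). Both calls were also lost with the 2 groups fitted alone, in the lower-numbered set alone and without the set as a term. Msr1 lost its call without robust fitting too (edgeR adjusted p = 0.0519), and Cd163 without the filter on low counts (0.0601).

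The genes whose pattern over the 12 libraries was most like each member were named by the root mean square difference of centred log2 CPM, over 9186 candidates. For Gas6 these were Tmem176a (0.090 log2 units), Plekha5 (0.12) and Plbd1 (0.13). For Itgb5 they were Rgs10 (0.066), C3ar1 (0.079) and Gas7 (0.084), and for Itgb3 Ccl4 (0.082), Fgr (0.084) and Egr2 (0.087). Mertk lay nearest to Wdfy2 (0.050), Atrn (0.051) and Abca3 (0.051), and Axl to Smim14 (0.056), Gpatch2l (0.058) and Fyn (0.058). Lrp1 lay nearest to Naip6 (0.082), Dst (0.085) and Piezo1 (0.091), and Pros1 to Ptov1 (0.062), Vamp2 (0.063) and Hps1 (0.065). Mfge8 lay near Sox13 (0.083) and Spr (0.086), and Itgav nearest to Zfp512 (0.072), Ing4 (0.072) and mrpl9 (0.074). The 12 libraries share the set difference, so the likeness of the genes that differed most between sets follows that difference.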

How the data were processed

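The authors deposited 1 table of expected counts per gene for each library, made with STAR and RSEM on rn6 (Rnor_6.0), per the submitters' processing notes. Those notes also list limma, FastQC and Trim Galore, without versions. The RNA was polyadenylated and the library kit stranded, per the labels' protocols. Of the deposited values 90.1% were whole, and totals lay between 27382724 and 34922211 expected counts a library. Expected counts were rounded and fitted with edgeR 4.0.16 in R 4.3.3 (TMM scaling, filterByExpr by group, robust quasi-likelihood) with group and library set as terms over all 12 libraries. Adjustment was over 13539 genes with a threshold of 0.05. CPM were TMM-scaled, and log2 CPM used a prior count of 2. The fitting was tested on simulated data. DESeq2 1.42.0 and limma 3.58.1 were alternatives. No 2 libraries agreed within sampling noise. Counts of Tyro3 (43 to 145 a library), Itgb3 (from 196), Pros1 (from 291) and Mfge8 (from 388) are the lowest of the members, and counting error weighs most there.

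The members, the lists and the library sets were chosen with earlier results of these data known. The text names all 10 members. From each pathway list it names genes that passed between co-cultures, and up to 3 with the largest differences between sets at a mean of at least 5 CPM whose ranges do not overlap. For each member at that level it names the 3 genes most like it. Some genes that this rule picks are not reported here. Socs1, Timp3, the markers named in the text and the soluble bridging proteins other than C1qc, C1qb and Edil3 were chosen after their values were seen.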

Additional observations from a re-analysis of the deposited data

Results flagged for a closer look

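Itgb5 in hAMSC 8 stood apart from the other lower-numbered libraries, at 85.2 CPM against 97.7 to 103 CPM in the other 5, a gap of 0.685 of the whole range. Of 50 groups of 4 or 6 libraries checked over the members 1 was picked out in this way. Chance picks out about 1 in 20 where the libraries of a group are alike. The groups of 4 hold 2 libraries of each set, so a member whose sets lie far apart could not be picked out there. The count therefore cannot be read against that rate. Without hAMSC 8, Itgb5 was at -0.13 log2 units for hAMSC against vehicle, against -0.17 with it, and the edgeR adjusted p was 0.521.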

How the results depend on the processing

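No paired analysis was made, because the labels do not say which libraries of different groups, if any, share an animal or preparation. Of 637 alternative values for the members 608 were counted as the same, 24 changed sign and 5 newly passed. For comparisons between co-cultures, the same meant an unchanged direction and side of the threshold. The 608 include all 40 values for set differences, which have no test. These were counted as the same because they moved by less than the standard deviation within the sets. With no filter on low counts, 52 genes passed for hAMSC against vehicle and 26 for hAEC against hAMSC, and 309 and 533 for the interactions of hAEC and hAMSC with set. DESeq2 gave 2 for hAEC against vehicle, 155 for hAMSC against vehicle, 80 for hAEC against hAMSC, and 23 and 113 for the interactions. limma voom gave 4 for the hAMSC interaction. Without robust fitting there were 12, 0 and 17 for hAMSC against vehicle, hAEC against hAMSC and the hAMSC interaction. The 2 groups alone gave 10 for hAEC and 9 for hAMSC against vehicle. Without the set, 0 passed for hAMSC against vehicle and 0 for hAEC against hAMSC. For hAEC against vehicle the lower-numbered set alone gave 1 and the higher-numbered 6, for hAMSC against vehicle 86 and 94, and for hAEC against hAMSC 1 and 58. Leaving out 1 library gave 8 to 153 for hAMSC against vehicle and 0 to 50 for hAEC against hAMSC. The reported fit gave 0, 32 and 3, and 0 and 27 for the interactions. The causes were not tested.

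Signs turned for small values. For hAMSC against vehicle, Itgb3 was at 0.007 without the set and 0.034 in the lower-numbered set, and -0.090 to 0.054 with 1 library left out. Tyro3 was at 0.35 in the higher-numbered set, and -0.099 to 0.088 with 1 left out. For hAEC against hAMSC in the lower-numbered set, Tyro3 was at 0.070 and Pros1 at -0.049, and with 1 left out Tyro3 was at -0.19 to 0.046 and Itgb3 at -0.14 to 0.004. For hAEC against vehicle in the higher-numbered set, Mertk was at -0.018, Tyro3 at 0.13, Pros1 at 0.023 and Itgav at 0.027. With 1 left out, Tyro3 was at -0.20 to 0.050, Itgav at -0.039 to 0.025 and Lrp1 at -0.080 to 0.030. Tyro3 had no value with a mean of at least 5 CPM required.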
